A study of Mus musculus with 10 samples.

Results

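The adrenergic and cAMP signalling genes of fat described here are 7 of the 30319 gene symbols of the deposited table. They were taken by symbol as adrenergic receptors and cAMP pathway parts of adipocytes, and they comprise the receptors Adrb1, Adrb3 and Adra2a, the G protein alpha subunit gene Gnas, the protein kinase A (PKA) subunits Prkaca and Prkar2b, and the phosphodiesterase Pde3b. RNA was taken from whole inguinal (subcutaneous, mammary) fat of FVB females on ingredient-matched diets between 12 and 30 weeks of age. The 4 groups were Null_HFD (FAP-/-, 60% of calories from fat, n = 3), WT_HFD (wild-type, 60%, n = 2), Null_LFD (FAP-/-, 10%, n = 3) and WT_LFD (wild-type, 10%, n = 2). Fap encodes fibroblast activation protein, a membrane protease of activated fibroblasts, and the labels do not say which part of the gene is disrupted or whether a pad came from 1 mouse. The series calls the samples biological replicates.

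In fat, noradrenaline from sympathetic nerves acts on beta-adrenergic receptors, which couple through the stimulatory G protein Gs to adenylyl cyclase. The cAMP made releases the catalytic subunits of PKA from their regulatory subunits, and PKA phosphorylates lipid droplet proteins and lipases so that triglyceride is broken down. Alpha2-adrenergic receptors couple to the inhibitory G protein Gi and lower cAMP, and PDE3B, which insulin activates, degrades cAMP and restrains lipolysis.

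All 7 members were expressed well enough to be tested, and no member passed the limma test between genotypes or diets, so no difference was larger than the spread of the libraries allowed. Their levels spanned a wide range, with medians of 482.5 and 329 TPM (a unit of transcript abundance that corrects for transcript length and library size) for Gnas and Prkar2b and of 0.892 TPM for Adra2a. The widest variation was that of Adrb3, from 17.3 TPM in Null_HFD 3 to 185 TPM in Null_HFD 1, 2 libraries of the same group.

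Several libraries differed in tissue content. The 12 mature adipocyte markers of the labelled tissue summed to 11570 to 30020 TPM in every library. Null_HFD 3 and WT_HFD 2 stood apart, with 10 lymph node markers at 2253 and 846.9 TPM in sum against 15.0 to 31.9 TPM in the other 8 libraries. Their 10 skeletal muscle markers summed to 80.5 and 175.4 TPM, against 1545 to 7851 TPM in the others. Some sums also did not overlap between genotypes. Muscle markers summed to 2696 to 7851 TPM in Null_LFD and 1545 to 2190 TPM in WT_LFD. Mammary luminal epithelium markers summed to 1702 to 2585 TPM in Null_LFD and 606.9 to 1174 TPM in WT_LFD. On the high-fat diet the epithelium sums lay the other way, at 327.9 to 926.1 TPM in Null_HFD and 1261 to 1422 TPM in WT_HFD. The part of such content in the genotype differences was not tested. In a pad, fewer cells of a type and less RNA per cell cannot be told apart. Fap itself lay at 26.7, 38.4 and 22.3 TPM in Null_HFD, 68.8 and 37.6 TPM in WT_HFD, 18.4, 22.4 and 18.3 TPM in Null_LFD and 45.4 and 39.2 TPM in WT_LFD, so its transcript was still present in the null libraries and the library labelled Null_HFD 2 lay above WT_HFD 2. Read depth cannot be judged from TPM.

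The sequences just upstream of the start sites of both PKA subunit genes, whose products are partners in 1 enzyme, are shown as a description. They are the 250 bases before a RefSeq start site (GRCm38.p6), read 5′ to 3′ on the strand of the gene, with TGACG, the core of the cAMP response element, or its reverse complement CGTCA in capitals. The Prkaca window lies at chr8:83972728-83972977 on the plus strand, and the Prkar2b window at chr12:32061278-32061527 on the minus strand.
Prkaca: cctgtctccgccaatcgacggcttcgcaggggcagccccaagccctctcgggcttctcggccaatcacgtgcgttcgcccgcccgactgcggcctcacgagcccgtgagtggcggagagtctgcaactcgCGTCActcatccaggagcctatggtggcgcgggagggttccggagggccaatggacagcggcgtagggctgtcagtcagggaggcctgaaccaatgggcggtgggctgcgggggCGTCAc
Prkar2b: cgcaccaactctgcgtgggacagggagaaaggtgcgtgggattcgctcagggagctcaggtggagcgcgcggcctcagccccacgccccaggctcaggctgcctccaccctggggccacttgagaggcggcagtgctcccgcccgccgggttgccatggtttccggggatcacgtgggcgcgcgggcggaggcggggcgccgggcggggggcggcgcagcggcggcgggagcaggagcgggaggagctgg
The Prkaca window held 2 such cores on its minus strand, starting 120 and 6 bases before the start site, 4 CCAAT boxes and 2 GC boxes (GGGCGG). The Prkar2b window held no core and no CCAAT box, and 4 GC boxes. Each gene has 2 RefSeq windows, and the one not shown held no core in either gene. Searched on both strands, TGACG was found in 17.8% of 32851 promoter windows of this length, CCAAT in 33.8% and GGGCGG in 32.7%. Guanine and cytosine made up 68.8% of the Prkaca window and 75.6% of the Prkar2b window, against a median of 52.4% over all windows. The set of windows used held none for Adrb3 or Pde3b, which were not searched. The full palindromic element TGACGTCA was found in none of the windows of the other 5 members (Adrb1, Adra2a, Gnas, Prkaca and Prkar2b), and in 1.55% of all windows. The TGACG core was not particular to Prkaca. It was also found in the Adrb1 and Adra2a windows and in some, not all, of the Gnas windows. Of these 5 members only Prkar2b held none. These matches describe the letters of the windows, and nothing in the data measured binding. Whether they bear on the levels was not tested.

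Adrb3 encodes the beta3 receptor, the main beta receptor of mouse adipocytes (ENSMUSG00000031489.15, chromosome 8, 27225776 to 27250616, minus strand, GRCm38). It measured 185, 116.9 and 17.3 TPM in Null_HFD, 176.7 and 60.7 TPM in WT_HFD, 159.5, 98.0 and 86.1 TPM in Null_LFD and 127.6 and 179.3 TPM in WT_LFD. The lowest values were those of the 2 lymph node-rich libraries, and the genotypes overlapped on both diets. On the log2(TPM + 1) scale, on which all differences here are given and which understates changes of low genes, the null minus wild-type difference over both diets was -0.48 (SE 0.61, limma adjusted p = 0.98), with a 95% interval of -1.86 to 0.90. Without Null_HFD 3 this difference was 0.0251. The high-fat minus low-fat difference over both genotypes was -0.57 (SE 0.61, limma adjusted p = 0.736). It was -0.0649 without Null_HFD 3 and 0.317 without both lymph node-rich libraries.

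Adrb1 encodes the beta1 receptor (ENSMUSG00000035283.5, chromosome 19, 56722199 to 56733113). It was far lower than Adrb3, at 2.44, 5.12 and 1.12 TPM in Null_HFD, 3.5 and 2.66 TPM in WT_HFD, 3.77, 3.06 and 1.84 TPM in Null_LFD and 2.86 and 2.59 TPM in WT_LFD. Its highest and lowest libraries both belonged to Null_HFD. The null minus wild-type difference was -0.082 (SE 0.32, limma adjusted p = 0.997) and turned to 0.103 without Null_HFD 3 and 0.0236 without Null_LFD 3. The high-fat minus low-fat difference was 0.013 (SE 0.32, limma adjusted p = 0.992), and its sign turned without any 1 of WT_LFD 2, Null_LFD 3, WT_HFD 1 or Null_HFD 2, with values of -0.0126, -0.0921, -0.0611 and -0.183.

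Adra2a encodes the Gi-coupled alpha2A receptor (ENSMUSG00000033717.6, chromosome 19, 54044151 to 54048982), which opposes the beta receptors. It measured 0.77, 1.37 and 0.99 TPM in Null_HFD, 1.66 and 0.69 TPM in WT_HFD, 0.70, 1.54 and 0.82 TPM in Null_LFD and 0.96 and 0.62 TPM in WT_LFD. Each group held a library under 1 TPM, and every group but WT_LFD also held one above. The genotype difference was 0.048 (SE 0.25, limma adjusted p = 0.997), with the opposite sign without WT_LFD 2 (-0.0220), Null_LFD 2 (-0.0413), WT_HFD 2 (-0.116) or Null_HFD 2 (-0.00866). The diet difference was 0.14 (SE 0.25, limma adjusted p = 0.856), and -0.0251 without WT_HFD 1.

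**Figure D1:**
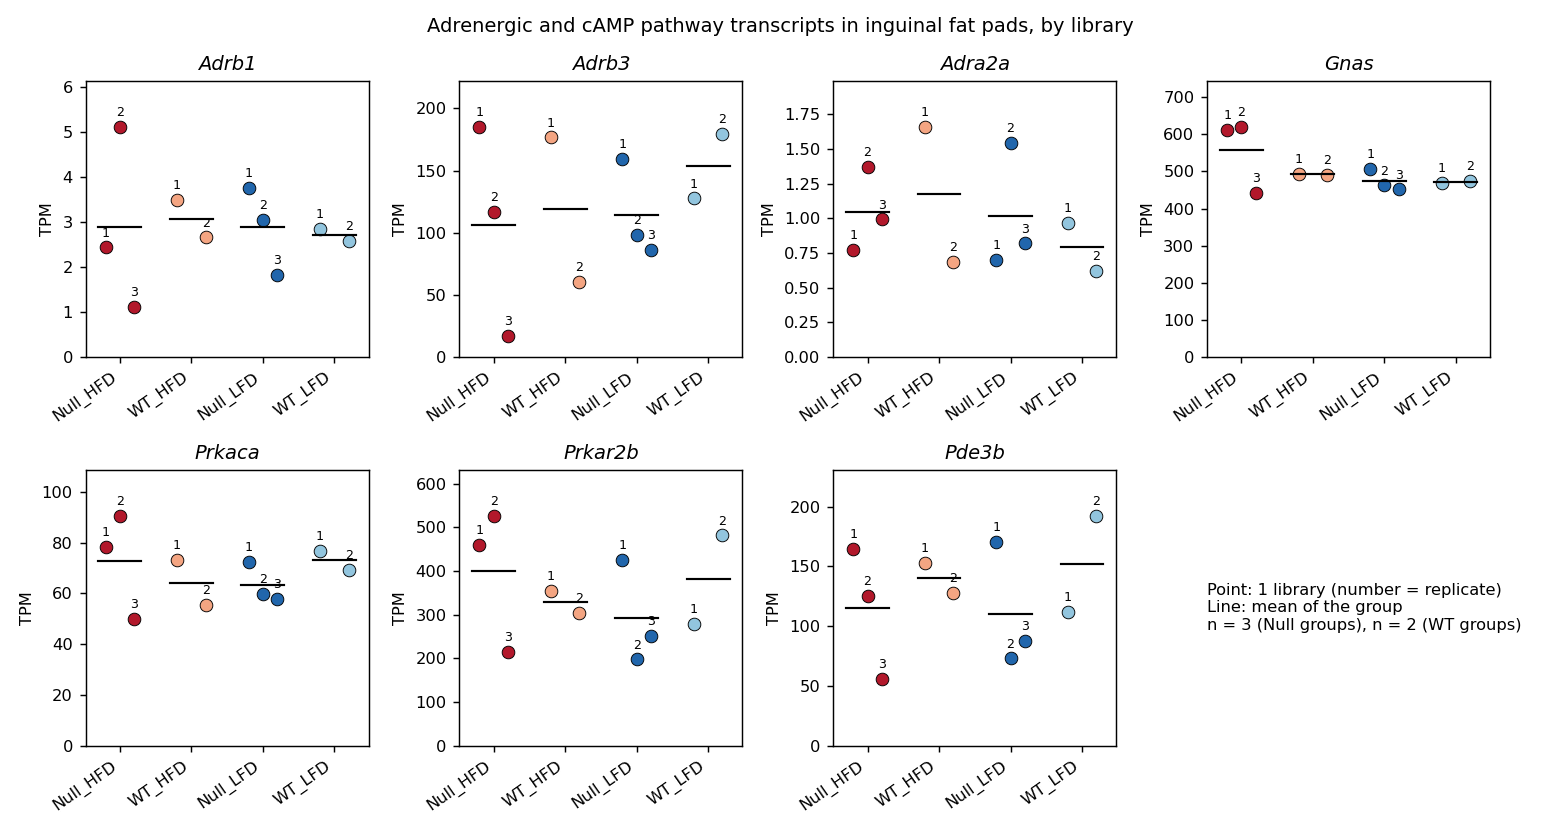
TPM of the 7 members (vertical axes, each from 0) in the 10 libraries, grouped by genotype and diet, where a point is 1 library with its replicate number and a line is the group mean. Null_HFD spans 17.3 to 185 TPM for Adrb3, and no panel separates null from WT libraries over both diets.

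Over all 9 adrenergic receptor genes, Adrb3 had a median share of 78.2% of the summed TPM, from 34.3% in Null_HFD 3 to 86.0% in WT_HFD 1, and Adra1a, an alpha1 receptor, the next largest median share at 11.2%, while Adra2a held 0.294% to 1.97%. Among the alpha2 receptors alone, the median shares were 42.7% for Adra2a, 41.6% for Adra2b and 11.2% for Adra2c. All were low, with medians of 0.892, 0.813 and 0.257 TPM, and Adra2c was too low to be tested. The shares varied widely, from 30.7% to 59.4% for Adra2a and from 29.2% to 65.5% for Adra2b.

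Gnas encodes the stimulatory G protein subunit that couples these receptors to adenylyl cyclase (ENSMUSG00000027523.19, chromosome 2, 174284320 to 174346744, plus strand). It was the steadiest and on median the most abundant member, at 611.5, 619.5 and 442 TPM in Null_HFD, 494.2 and 489.7 TPM in WT_HFD, 506.9, 462.1 and 451.3 TPM in Null_LFD and 468.3 and 475.4 TPM in WT_LFD. The highest library was 1.40 times the lowest. The 2 highest values were those of Null_HFD 1 and 2, and Null_HFD 3 had the lowest value of all. The null minus wild-type difference was 0.083 (SE 0.15, limma adjusted p = 0.984), beside a median of 0.084 over all 16932 genes tested. The diet difference was 0.14 (SE 0.15, limma adjusted p = 0.744) over both genotypes and 0.22 (SE 0.20, limma adjusted p = 0.826) within null. Median-of-ratios scaling gave 0.00424 between genotypes and 0.00348 between diets, and leaving out 1 library at a time gave 0.0413 (without Null_HFD 2) to 0.163 (without Null_HFD 3) between genotypes. In wild type Gnas lay higher in both high-fat libraries than in both low-fat libraries, as did 33.7% of all genes tested, and 45.1% did not overlap in either direction. The gene lies 111.7 Mb from Fap on the same chromosome. Its locus is imprinted and uses several start sites, and RefSeq promoter windows are placed at 4 of them, so the gene-level value pools transcripts that do and do not encode Gs alpha. Gm20721, annotated on the opposite strand within the locus, measured 3.46 to 9.36 TPM, and the libraries were made with a stranded kit.

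Prkaca encodes the PKA catalytic subunit alpha (ENSMUSG00000005469.10, chromosome 8, 83972993 to 83996443, plus strand). It measured 78.4, 90.6 and 49.9 TPM in Null_HFD, 73.2 and 55.4 TPM in WT_HFD, 72.3, 59.9 and 57.9 TPM in Null_LFD and 76.8 and 69.2 TPM in WT_LFD. Its lowest values were again those of Null_HFD 3 and WT_HFD 2. The genotype difference was -0.028 (SE 0.19, limma adjusted p = 0.997) and lay between -0.127 and 0.0961 when single libraries were left out, with the sign turned without WT_LFD 1, Null_LFD 3, WT_HFD 1 or Null_HFD 3. The diet difference was -0.014 (SE 0.19, limma adjusted p = 0.986), ran from -0.113 to 0.11, and turned without WT_LFD 1, Null_LFD 1, WT_HFD 2 or Null_HFD 3. Prkacb, which encodes the catalytic subunit beta, made up 27.6% to 34.8% of catalytic subunit TPM in the 8 other libraries and 59.4% and 46.7% in Null_HFD 3 and WT_HFD 2.

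Prkar2b encodes RII beta, the main PKA regulatory subunit of mouse fat (ENSMUSG00000002997.15, chromosome 12, 31958476 to 32061296, minus strand). It measured 458.7, 526.3 and 215 TPM in Null_HFD, 353.8 and 303.5 TPM in WT_HFD, 426, 197.5 and 251.6 TPM in Null_LFD and 279.6 and 481.2 TPM in WT_LFD. On the low-fat diet 2 of the 3 null libraries lay below both wild-type libraries, and on the high-fat diet 2 of the 3 lay above both. Null minus wild type was -0.41 (SE 0.45, limma adjusted p = 0.949) on the low-fat diet and 0.19 (SE 0.45, limma adjusted p = 1) on the high-fat diet, and their difference, the interaction, was 0.59 (SE 0.64, limma adjusted p = 1). The high-fat value was -0.0609 without Null_HFD 2, and the low-fat value -0.015 without WT_LFD 2. The interaction was 0.202 without WT_LFD 2, 0.988 without Null_HFD 3 and 0.171 after centring on the adipocyte markers. Averaged over the diets the difference was -0.11 (SE 0.32, limma adjusted p = 0.994), and it was 0.0858, 0.0116 and 0.0886 without WT_LFD 2, Null_LFD 2 and Null_HFD 3. The diet difference was 0.13 (SE 0.32, limma adjusted p = 0.892), and -0.0614 without WT_LFD 1.

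Prkar2b made up 57.1% to 79.0% of the TPM of the 4 regulatory subunit genes. Prkar1a, which encodes the widely expressed RI alpha subunit, came next with 16.3% to 34.2%. Prkar1a itself lay between 94.8 and 128.9 TPM. In every library Prkar2b stood above Prkaca, by 3.3 to 6.95 times.

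**Figure D2:**
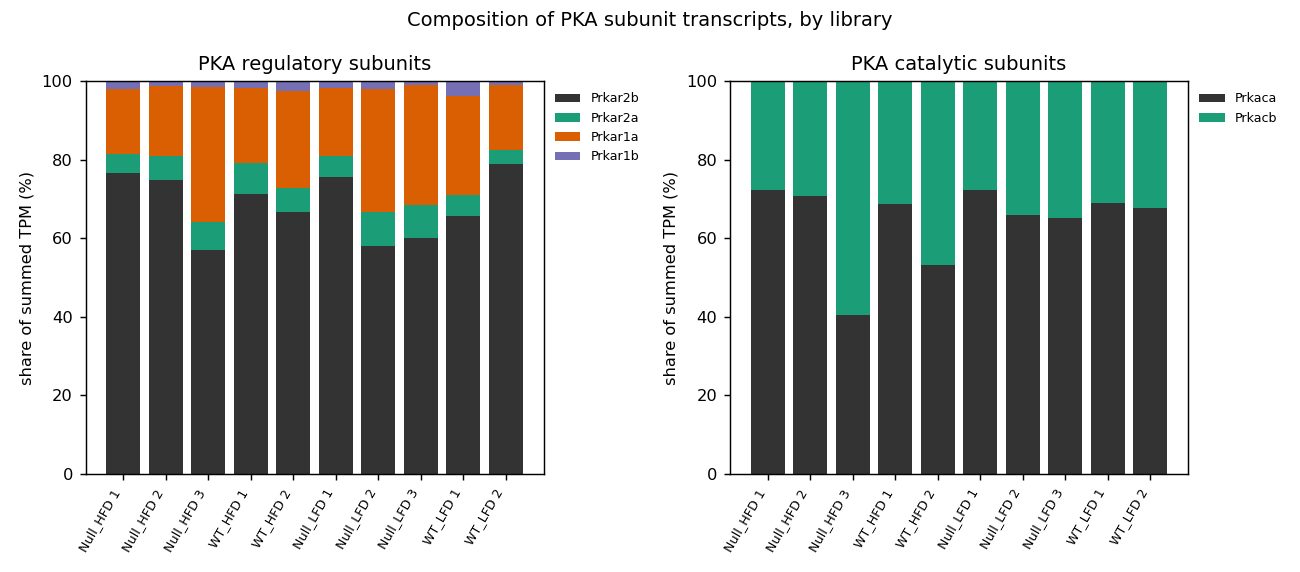
Share of the summed TPM (vertical axes, in percent) that each gene takes of the 4 PKA regulatory subunits and the 2 catalytic subunits, with 1 bar per library. Prkaca takes its smallest share, 40.6%, in Null_HFD 3, and its next smallest, 53.3%, in WT_HFD 2.

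Pde3b encodes the cAMP phosphodiesterase through which insulin restrains lipolysis in adipocytes (ENSMUSG00000030671.9, chromosome 7, 114415281 to 114539251, plus strand). It measured 164.5, 125 and 56.1 TPM in Null_HFD, 153.1 and 127.7 TPM in WT_HFD, 170.8, 73.0 and 87.6 TPM in Null_LFD and 111.7 and 192.4 TPM in WT_LFD. The 3 lowest values all came from null libraries, and the highest from WT_LFD 2. Those 3 libraries, Null_HFD 3, Null_LFD 2 and Null_LFD 3, also had the smallest mature adipocyte marker sums, at 11570, 14510 and 17090 TPM. The part of adipocyte content in the level of Pde3b was not tested. Of the members it had the smallest p between genotypes, with a null minus wild-type difference of -0.46 (SE 0.35, limma unadjusted p = 0.219, adjusted p = 0.98) and a 95% interval of -1.24 to 0.33. The difference was -0.50 (SE 0.49, limma adjusted p = 0.949) on the low-fat diet and -0.41 (SE 0.49, limma adjusted p = 1) on the high-fat diet, where it was 0.0362 without Null_HFD 3. The low-fat value was -0.115 without WT_LFD 2 and -0.895 without WT_LFD 1. Averaged over the diets it kept its sign when any 1 library was left out, between -0.653 without WT_LFD 1 and -0.234 without Null_HFD 3. The diet difference was -0.021 (SE 0.35, limma adjusted p = 0.989) and turned without WT_LFD 2, Null_LFD 1, WT_HFD 2 or Null_HFD 3 (0.174, 0.16, 0.0443 and 0.203). Pde3b was the largest entry of the 15 phosphodiesterase genes on median, with 29.9% of their summed TPM, from 15.7% in Null_HFD 3 to 43.7% in WT_LFD 2.

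No member was called in any of the 7 comparisons at an adjusted p of at most 0.05, and no member had an unadjusted p under 0.05 in any of them. Few genes of any kind were called. Over all 16932 genes tested, limma called 0% between genotypes over both diets, with 0% on low fat alone and 0.0118% on high fat alone. It called 0% between diets over both genotypes, 0% in wild type alone, 0.00591% in null alone and 0% in the interaction. In the same order, unadjusted p values under 0.05 were held by 4.19%, 4.43%, 3.82%, 9.69%, 5.61%, 6.67% and 4.14% of genes. The median member difference was -0.082 between genotypes, against 0.084 over all genes, and 0.013 between diets, against 0.11 over all genes. Scaling by median of ratios moved the all-gene medians to 0.017 and -0.0056. No member separated the 6 null from the 4 wild-type libraries, nor the 5 high-fat from the 5 low-fat libraries, where 0.921% and 2% of all genes did. The intervals are wide, so the tests do not show that levels were alike: for Adrb3 the diet interval ran from -1.95 to 0.81.

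**Figure D3:**
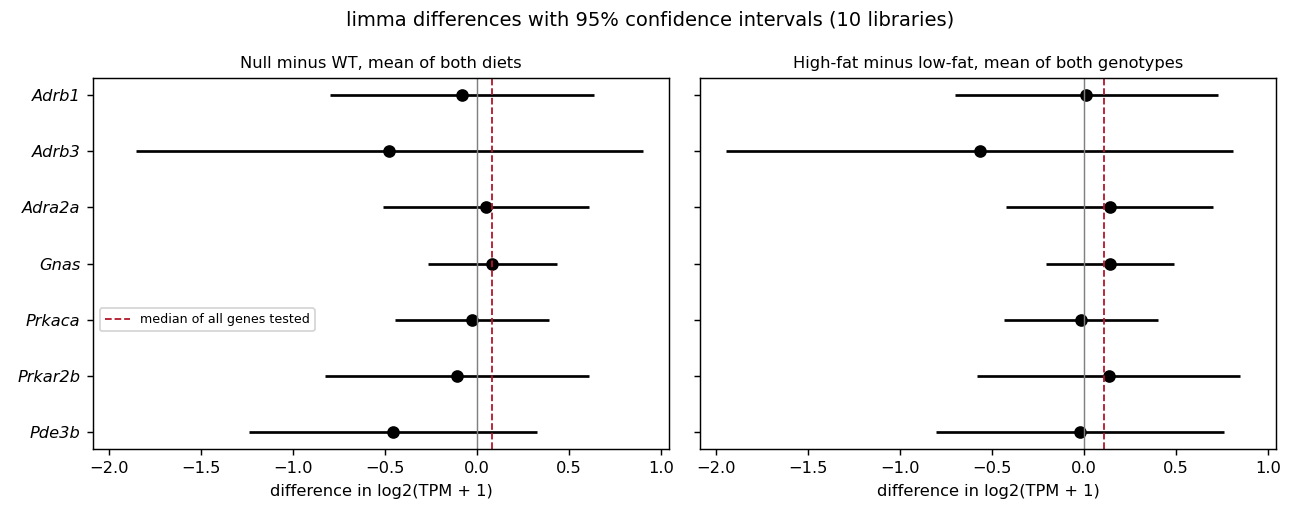
Differences in log2(TPM + 1) (horizontal axes) of the 7 members between null and WT pads (left) and between high-fat and low-fat diets (right), where points are limma estimates, bars are 95% intervals over 10 libraries and the dashed line is the median of all genes tested. Every interval includes 0, and Adrb3 has the widest, from -1.86 to 0.90 and from -1.95 to 0.81.

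The order of the levels was largely kept across libraries. Prkar2b exceeded Pde3b in 10 of 10 libraries by at least 2.31 times, Prkaca exceeded Adrb1 in 10 of 10 by at least 17.7 times, and Adrb1 exceeded Adra2a in 10 of 10 by 1.13 to 5.41 times. Gnas exceeded Prkar2b in 9 libraries, the exception being WT_LFD 2, and Adrb3 exceeded Prkaca in 9, the exception being Null_HFD 3. Pde3b and Adrb3 did not differ in level beyond their spread, with Pde3b the higher in 6 libraries and a median ratio of 1.04.

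Members varied across libraries in different ways when set beside the cell content of the pads. Prkar2b moved closely with the mature adipocyte markers, and its range over the 10 libraries shrank to 0.561 when the mean log2 level of these markers was subtracted, against 1.41 without. For Pde3b the range was 1.06 with the subtraction and 1.76 without. Adrb3 kept a range of 2.37, against 3.35 without. For Prkaca the range was 0.597 with the subtraction and 0.849 without, and for Adrb1 1.2 with and 1.53 without. For Gnas and Adra2a the range grew with the subtraction, to 0.881 for Gnas against 0.486 without, and to 1.49 for Adra2a against 0.714 without. Adra2a lay at 0.62 to 1.66 TPM, where the 1 added before the log narrows its own range. The part of this scale in the growth for Adra2a was not tested.

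What remained of Adrb3 was lowest in Null_HFD 3, WT_HFD 2 and Null_HFD 2, at -1.79, -0.535 and -0.466 from the mean of the 10 libraries. These are also the 3 libraries with the least thermogenic adipocyte transcripts, whose 6 markers, among them the uncoupling protein gene Ucp1, summed to 27.0, 41.1 and 131.4 TPM there. The sum was 888.1 TPM in Null_HFD 1, 447.2 TPM in WT_HFD 1, 174.2 to 636.2 TPM in Null_LFD and 381.9 and 1206 TPM in WT_LFD. Null_LFD 2 had the next smallest sum, 174.2 TPM, yet its remaining Adrb3 value was 0.468, against a highest value of 0.583 in WT_LFD 2. Ucp1, which lets mitochondria of brown and beige fat make heat, ran from 1.35 TPM in Null_HFD 3 to 859.8 TPM in WT_LFD 2. The part of thermogenic cells or of lymph node tissue in the level of Adrb3 was not tested.

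**Figure D4:**
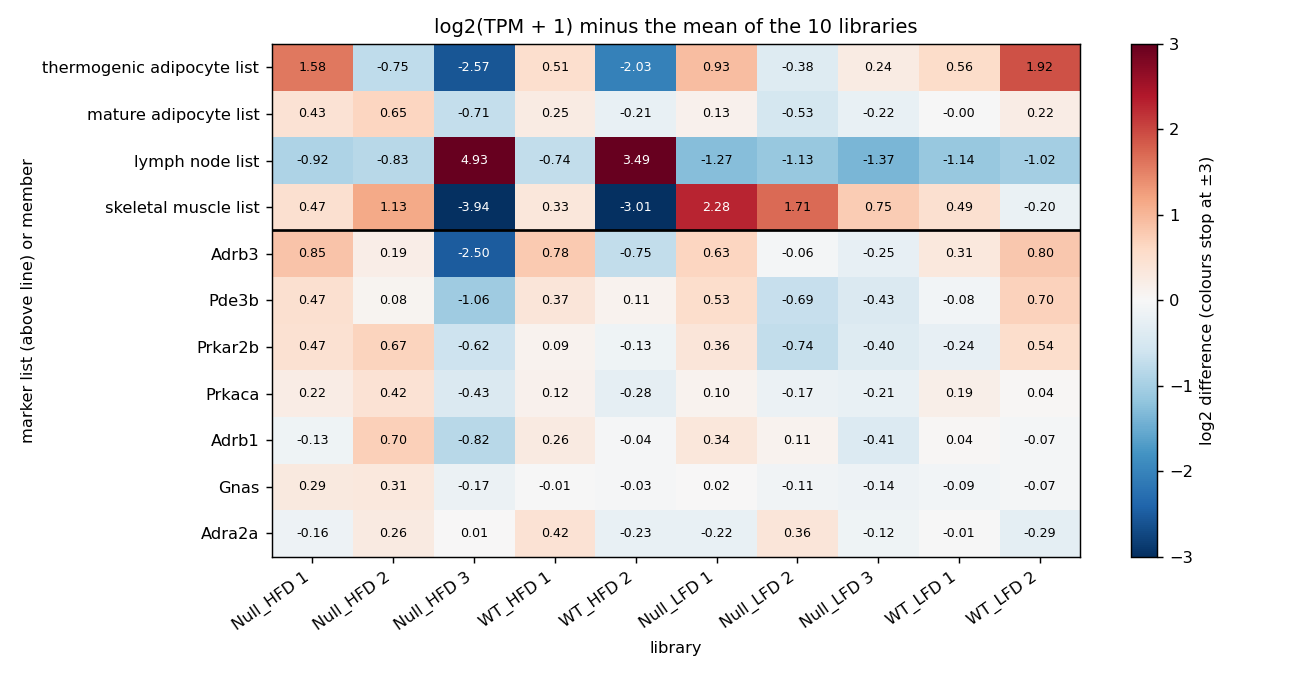
Log2(TPM + 1) of 4 marker lists (mean of the list, above the line) and of the 7 members, each minus its mean over the 10 libraries, with 1 column per library. In Null_HFD 3 Adrb3 lies at -2.50, the thermogenic list at -2.57 and the lymph node list at 4.93, while Gnas and Adra2a stay within 0.423 of their means in every library. The scale narrows changes of Adra2a, whose median was 0.892 TPM.

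Likeness of pattern was measured as the root mean square difference between centred log2 values over the 10 libraries, among 11182 genes that averaged 5 TPM or more, leaving out the members, gene models with Gm or Rik names and olfactory receptors. The most similar gene to Adrb3 was Cox8b, a cytochrome oxidase subunit typical of brown and beige fat, at 0.235 against a median of 1.07 over all candidates, followed by Chst1 (0.361) and S100a1 (0.397). The genes nearest to Prkar2b included Sh3pxd2a (0.154) and Cidec, a lipid droplet protein of adipocytes (0.163), against a median of 0.605. For Pde3b they were Eci3 (0.158), Aldh6a1, an enzyme of valine breakdown (0.182), and Ppp1r1a, a protein phosphatase 1 inhibitor that PKA activates (0.192). Those of Prkaca were Acbd5 (0.0888), Tspan18 (0.094) and Clybl (0.102), and those of Gnas were Tbc1d9b (0.0595), Tsc2 (0.0687) and Zfand3 (0.0786). Adrb1 was nearest to Pln (0.115), Ushbp1 (0.139) and Nbeal1 (0.15), and Adra2a to Pdcl (0.134), Mtss1 (0.135) and Metrnl (0.145). Members that vary little are close to many genes, as the candidate median of 0.359 for Gnas shows. Between members, Gnas and Prkaca were the closest pair (0.163), and Adrb3 and Adra2a the most distant (0.997).

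Of 109 further genes of the pathway, in 13 roles, 102 were expressed well enough to be tested, and none passed the limma test over all genes in any of the 7 comparisons. Between genotypes 52 were higher and 50 lower in null pads, against 10750 higher and 6182 lower over all genes tested, with a median of 0.034 against 0.084. An unadjusted p under 0.05 was held by 2 of the 102, beside 4.19% of all genes. Median-of-ratios scaling put 45 of 102 higher and centring on the adipocyte markers 73 of 102. Mc5r, a Gs-coupled melanocortin receptor, measured 5.28, 2.67 and 0.276 TPM in Null_HFD, 4.90 and 14.2 TPM in WT_HFD, 2.87, 1.33 and 0.659 TPM in Null_LFD and 5.22 and 8.99 TPM in WT_LFD. The null libraries lay below the wild-type ones on the low-fat diet, as they did for 6.3% of all genes tested, and overlapped them on the high-fat diet (difference over both diets -1.65, SE 0.49, limma unadjusted p = 0.0083, adjusted p = 0.98). Gnb1, a G protein beta subunit, stood at 288.7, 314.6 and 278.9 TPM in Null_HFD, 189.7 and 254.8 TPM in WT_HFD, 211.5, 198.8 and 243 TPM in Null_LFD and 192.9 and 153.7 TPM in WT_LFD (0.37, SE 0.14, limma adjusted p = 0.98).

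None of the 7 adenylyl cyclases tested, which make cAMP, and none of 10 cAMP-responsive transcripts had an unadjusted p under 0.05 in the genotype comparison over both diets or the diet comparison over both genotypes, where 4.19% and 9.69% of all genes did. Within single arms, 1 adenylyl cyclase did between diets in null pads and 1 cAMP-responsive transcript between genotypes on the high-fat diet, beside 6.67% and 3.82% of all genes.

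Between diets 75 of the 102 pathway genes were higher and 27 lower on the high-fat diet, against 10730 higher and 6202 lower over all genes tested, with a median of 0.181 against 0.11. Median-of-ratios scaling left 58 of 102 higher and centring on the adipocyte markers 59. An unadjusted p under 0.05 was held by 13 of the higher and 1 of the lower genes, together 14 of 102, beside 9.69% of all genes. Median-of-ratios scaling gave 7 higher genes at that p, and centring on the adipocyte markers gave 1. Without WT_HFD 2 alone the count of such higher genes was 0, without WT_LFD 2 it was 7, without WT_LFD 1 it was 8, and without WT_HFD 1 or Null_HFD 1 it was 23. Without both lymph node-rich libraries the counts were 6 and 1. G protein subunits made up 4 of the 13, including Gnb1 (0.39, SE 0.14) and Gnai2 (0.53, SE 0.19), a Gi alpha subunit. Others were Pde7a and Pde2a, both phosphodiesterases (0.68, SE 0.23 and 0.42, SE 0.18), the CREB coactivators Crtc3 and Crtc2 (0.52, SE 0.18 and 0.66, SE 0.25), Akap12, a PKA anchoring protein (0.80, SE 0.27), and Pkig, a PKA inhibitor (0.56, SE 0.22). The receptors Npy1r (0.63, SE 0.23), coupled to Gi, and Adora2a (0.75, SE 0.29), coupled to Gs, were also among them. The lower gene was Abhd5, the coactivator of adipose triglyceride lipase that perilipin releases when PKA acts, at 147.2, 150.5 and 81.6 TPM in Null_HFD, 154.8 and 113.7 TPM in WT_HFD, 194.5, 154.5 and 131.2 TPM in Null_LFD and 222.4 and 219.5 TPM in WT_LFD (-0.55, SE 0.21, limma adjusted p = 0.513). The limma adjusted p was 0.513 for each of these genes in the diet comparison.

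Gnai2, Npy1r, Adora2a, Pkig, Crtc2 and Crtc3 had their 2 highest values in the lymph node-rich libraries. Gnai2, for example, measured 285.7 TPM in Null_HFD 3 and 206.9 TPM in WT_HFD 2, against 107 to 202 TPM in the other 8 libraries. Pde7a measured 96.9 TPM in Null_HFD 3 and 86.1 TPM in WT_HFD 2, with 94.6 TPM in Null_HFD 2 and 35.5 to 54.8 TPM in the other 7 libraries. The highest Akap12 value was 136.5 TPM in Null_HFD 2, and Null_HFD 3 lay at 47.1 TPM. The part of lymph node tissue in these differences was not tested.

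Transcripts of the enzymes that make the ligand in sympathetic nerves were low. Of 6 sympathetic nerve markers, Th, the rate-limiting enzyme of noradrenaline synthesis, was listed at 0 in 7 libraries and reached 1.53 TPM at most, and Dbh, which makes noradrenaline from dopamine, was listed at 0 in 7 and reached 0.132 TPM. The 6 markers summed to 6.15 to 9.12 TPM in Null_HFD, 6.69 and 10.9 TPM in WT_HFD, 6.41 to 8.41 TPM in Null_LFD and 5.82 and 5.25 TPM in WT_LFD. The lymph node-rich libraries had the largest sums, 10.9 TPM in WT_HFD 2 and 9.12 TPM in Null_HFD 3. In every group the markers Slc18a2 and Ddc had the highest means (4.02 and 2.68 TPM in Null_HFD) and made up most of the sum. Neither nerve supply nor noradrenaline was measured.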

How the data were processed

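Total RNA depleted of ribosomal RNA was sequenced, and the values used are log2(TPM + 1) as the authors deposited them, 1 per gene symbol and library. The log base and the 1 added were inferred from the values, whose back-transformed sums are 946103 to 954463 TPM. The submitters' processing notes name kallisto, limma and GRCm38, with no version or role. The line without a symbol (0.00544% to 0.0108% of TPM) was left out.

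A gene was tested where 2 libraries or more reached 1 TPM (16932 genes). Differences between the 4 group means come from limma 3.58.1 under R 4.3.3, with a variance trend and 6 residual degrees of freedom. Tests were two-sided, Benjamini-Hochberg adjusted over all genes of a comparison and called at 0.05, and the code was tested on simulated data. The members, the 13 pathway roles and the 11 marker lists were chosen with earlier results of these data known. Gene positions are from GENCODE. Every member is named, and up to 2 pathway genes of each role with the smallest p. Gnb2, Gnb4 and Arrb2 are only counted, and some genes that these rules name are not reported here. Alternatives changed the pseudocount, filter, scaling, variance model, replicate block and libraries.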

Additional observations from a re-analysis of the deposited data

How the results depend on the processing

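No member tested was called in any of the 7 comparisons under any of 19 alternative settings (Adrb1, Adra2a and Mc5r were not tested under the stricter filter of 5 TPM). Among the 20 member differences followed through these settings, the lowest limma adjusted p was 0.482. Of 33 differences of named genes, 19 kept their sign in every setting in which they were tested. Among them were those of Gnas over both diets and both genotypes (down to 0.00424 and 0.00348). That of Pde3b between genotypes over both diets and the 13 printed for other pathway genes were also among them. Those 13 were picked by small p in these same data, which favours a kept sign, so they are no separate support. The calls over all genes ranged from 0 to 18 in the genotype comparison on high fat, against 2 as reported, from 0 to 15 over both diets against 0, and from 0 to 5 in the other 5 comparisons.

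Signs that turned are given here as log2 differences, and the cause was not tested. Centring on the adipocyte markers gave 0.0224 for Adrb1 and 0.0762 for Prkaca between genotypes, -0.108 for Adrb1 between diets and -0.111 for Gnas between diets in null. Median-of-ratios scaling gave -0.0873 for Adrb1 and -0.00298 for Prkar2b between diets, and a pseudocount of 0.1 gave -0.0102 for Adrb1. Sample weights gave 0.103 for Adrb1, 0.0691 for Prkaca and 0.0177 for Prkar2b between genotypes, and 0.141 for Pde3b and 0.0704 for Prkaca between diets. Without both lymph node-rich libraries the genotype differences were -0.109 for Adra2a, 0.0287 for Adrb1 and 0.0335 for Prkar2b, and the diet differences 0.317 for Adrb3, 0.268 for Pde3b and 0.21 for Prkaca.

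Leaving out 1 library at a time, the genotype difference ran from -0.116 to 0.212 for Adra2a, -0.278 to 0.103 for Adrb1, -0.859 to 0.0251 for Adrb3, -0.127 to 0.0961 for Prkaca and -0.305 to 0.0886 for Prkar2b. On high fat alone it ran from -0.732 to 0.0362 for Pde3b and -0.0609 to 0.583 for Prkar2b. The diet difference ran from -0.0251 to 0.303 for Adra2a, -0.183 to 0.199 for Adrb1, -0.216 to 0.203 for Pde3b, -0.113 to 0.11 for Prkaca and -0.0614 to 0.332 for Prkar2b.

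The replicate block changed no member call. It gave genotype differences of 0.209 for Adrb1, 0.114 for Adrb3, 0.126 for Prkaca and 0.123 for Prkar2b. Whether the replicate numbers pair the samples could not be settled. Of 13 pairs with the same number, 2 had a correlation of deviations over 0.1 (range -0.346 to 0.412, against -0.502 to 0.502 for other pairs). Yet 7 of 10 libraries correlated best with their own number. In a group of 2 libraries the deviations mirror each other, so these correlations fix one another (Null_HFD 1 had 0.412 with WT_HFD 1 and -0.412 with WT_HFD 2). Groups of 2 and 3 libraries leave wide intervals, and the depth behind a TPM value is unknown.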
